A study of Arabidopsis thaliana with 12 samples.

Results

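Stearoyl-CoA, labelled C18:0 CoA, was compared with palmitoyl-CoA, labelled C16:0 CoA, in whole Arabidopsis thaliana seedlings. Both compounds are fully saturated acyl-CoAs; their acyl chains have 18 and 16 carbons, so they differ in chain length. The comparison took the exon read counts of the 3 C18:0 CoA libraries and the 3 C16:0 CoA libraries, 6 of the 12 libraries of the series, over 28642 genes that carry an identifier. Wild-type seedlings had grown for 14 days in liquid MS medium with sucrose. C18:0 CoA seedlings received 0.1% stearoyl-CoA in a vehicle of 0.01% Pluronic F68, which is a non-ionic surfactant. C16:0 CoA seedlings received palmitoyl-CoA at 0.1% in the same vehicle. Control seedlings received 0.01% Pluronic F68 alone. All were frozen after 90 minutes. The labels do not say whether 0.1% is by weight or volume, so equal percentages of compounds of unequal chain length need not be equal molar doses. Each library came from a pool of 80 plants and the series describes the replicates as biological; p-values measure the spread between these pools. The other 3 libraries received oleoyl-CoA (C18:1 CoA) and, like the control libraries, entered the filter on low counts and the estimate of the spread, not the contrast.

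An acyl-CoA is a fatty acid joined to coenzyme A through a thioester, the form in which cells use it. In plants, long-chain acyl-CoA synthetases form them, small acyl-CoA-binding proteins carry and buffer them, acyltransferases place them into membrane and storage lipids, elongases lengthen them, and peroxisomal beta-oxidation breaks them down. In Arabidopsis the cytosolic acyl-CoA pool has also been tied to low-oxygen signalling: the group VII ethylene response factor RAP2.12 is held at the plasma membrane through ACBP1 and ACBP2, and on release enters the nucleus, where it induces genes of fermentation. Saturated chains of both lengths leave the plastid as products of fatty acid synthesis, although most C18:0 is desaturated to C18:1 before export.

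The C18:0 CoA libraries held 4236345, 602649 and 2500251 exon reads (replicates 1 to 3), and the C16:0 CoA libraries 2170631, 640605 and 1753673. The second replicate of each group was thus the shallowest, and 3 reads were worth 5.26 CPM (reads scaled to the effective size of the library) in C18:0 CoA replicate 2 and 5.33 CPM in C16:0 CoA replicate 2, against 0.69 to 1.69 CPM in the other 4. C16:0 CoA replicate 2 stood apart from the rest. It lay alone on the first principal component, which carried 57.1% of the variance of these 6 libraries, and its short genes exceeded its long genes by 1.097 log2 units relative to the mean of the libraries. That excess was between -0.11 and 0.39 in the C18:0 CoA libraries and -0.24 and -0.14 in the other C16:0 CoA libraries. The biological coefficient of variation within the group was 0.206 for C18:0 CoA and 0.326 for C16:0 CoA. Spearman correlations between a C18:0 CoA and a C16:0 CoA library (9 pairs, 0.834 to 0.971) covered the same range as those within the C16:0 CoA group (0.822 to 0.964); those within the C18:0 CoA group were 0.904 to 0.962. All C18:0 CoA libraries carried one i7 index and all C16:0 CoA libraries another, so index and compound cannot be told apart. Control libraries carried the same index as the C18:0 CoA libraries, so the same holds wherever C16:0 CoA stands away from control and C18:0 CoA does not. Of the C18:1 CoA libraries, replicate 3 carried the C16:0 CoA index and replicates 1 and 2 the C18:0 CoA index. Only C18:0 CoA replicate 1 and C16:0 CoA replicate 3 shared a sequencing lane.

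**Figure D1:**
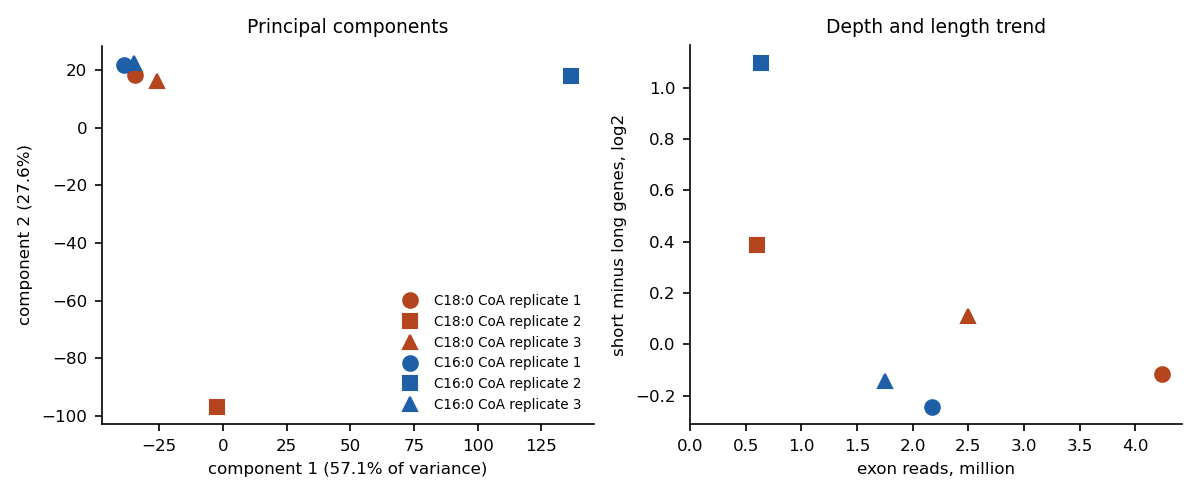
Left, the 6 libraries on their first 2 principal components of log2 CPM; right, each library's exon reads against its mean log2 excess of short over long genes. C16:0 CoA replicate 2 lies alone to the right on component 1 (57.1% of the variance) and has the highest excess of short genes (1.097), and both second replicates lie at the low end of depth.

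Between the saturated chains of 18 and 16 carbons, no gene passed the test. Of 17036 genes with enough reads, 0 were higher and 0 lower with C18:0 CoA at an adjusted p under 0.05 (0% called, edgeR quasi-likelihood test with Benjamini-Hochberg adjustment, smallest adjusted p 0.9999). DESeq2 and limma voom also called 0, with 360 and 367 genes at an unadjusted p under 0.05. At an unadjusted p under 0.05 edgeR counted 187 genes higher (1.1%) and 173 lower (1.02%), together 2.11% of the genes tested. The CPM of the 2 groups did not overlap for 710 genes that were higher with C18:0 CoA (4.17%) and 621 that were lower (3.65%), 7.81% in all. The differences lay evenly about 0: 49.3% of genes were positive and 50.7% negative, the median log2 fold change was -0.01, and the central 95% of genes lay between -0.75 and 0.79. Log2 fold changes are C18:0 CoA over C16:0 CoA throughout.

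A p that misses the threshold does not show that the compounds act alike, so the intervals say how far the data reach. The 95% interval of the difference lay within 1 log2 unit of 0 for 9331 genes (54.8%). For each of these genes taken singly, the interval leaves out a 2-fold difference. The intervals do not hold jointly over the genes, so some of these genes may differ by more. They also use a spread shared by all groups (biological coefficient of variation 0.229, against 0.326 within C16:0 CoA). It lay within 0.5 log2 units for 630 genes (3.70%). Precision followed the level. With the genes split into 3 sets of equal size by mean CPM, intervals lay within 1 log2 unit for 92.1% of the highest set (42.95 CPM and above), 64.6% of the middle set and 7.59% of the lowest set (up to 16.1 CPM). The median half-width of an interval was 0.711 log2 units. Across the genome, 229 genes had fitted differences above 1 and 179 below -1, and none of these was called.

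**Figure D2:**
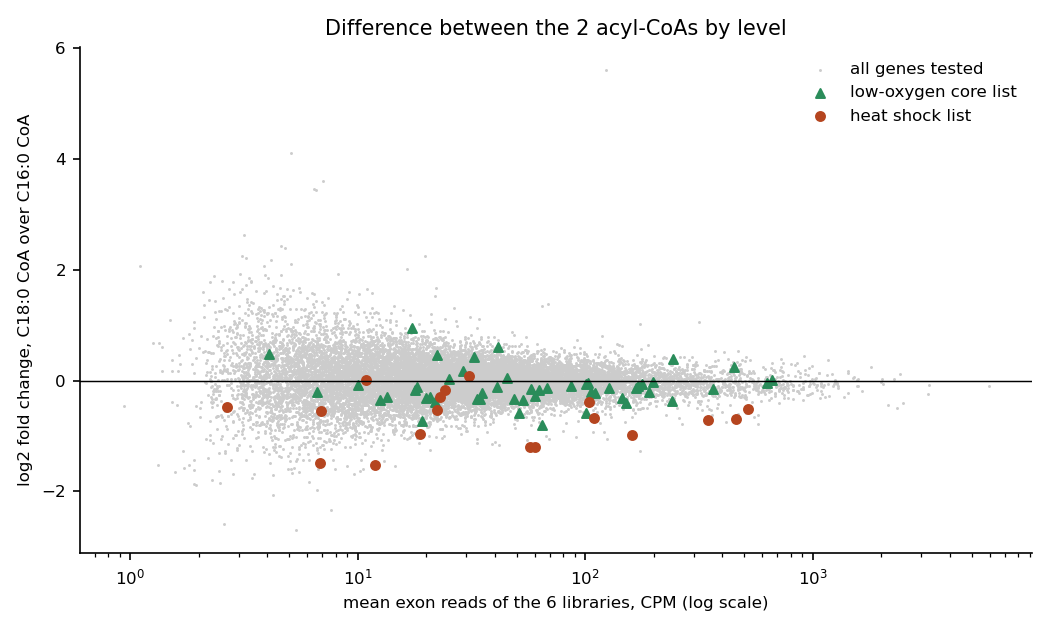
Each point is a gene tested, with its mean CPM over the 6 libraries on a log axis and its log2 fold change, C18:0 CoA over C16:0 CoA. The cloud is centred on 0 and widens at low levels; 16 of 18 heat shock genes lie below 0, as do 39 of 50 low-oxygen genes.

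The gene with the smallest p was PRP1 (AT1G54970, chr1:20505000-20506488 on TAIR10 as the files give it), a proline-rich cell wall protein gene expressed in root hairs. Its level was 48.0, 38.6 and 42.0 CPM with C18:0 CoA and 19.8, 17.8 and 20.9 CPM with C16:0 CoA, and averaged 42.7 CPM in control seedlings. All C18:0 CoA libraries were near the control level and all C16:0 CoA libraries lay well below it. The log2 fold change was 1.14 ± 0.24 (SE; edgeR adjusted p = 0.9999), and it lay between 1.04 and 1.19 when any 1 library was left out. The related genes PRP2, PRP3 and PRP4 did not share the difference: their log2 fold changes were -0.17, 0.10 and -0.32, and their groups overlapped.

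XTH6 (AT5G65730) was the leading gene of the xyloglucan endotransglucosylase/hydrolases, enzymes that cut and rejoin xyloglucan chains of the cell wall. It had 77.9, 142.0 and 84.0 CPM with C18:0 CoA, against 44.6, 21.3 and 40.1 CPM with C16:0 CoA, and averaged 63.9 CPM in control seedlings. The groups did not overlap, and control seedlings lay between them. The log2 fold change was 1.38 ± 0.37 (SE), and 0.93 without the 3 shallowest libraries of the series. TCH4, also known as XTH22 and first described as a touch-induced gene, had 184.0, 278.8 and 241.9 CPM with C18:0 CoA and 180.0, 63.9 and 90.8 CPM with C16:0 CoA. Its lowest C18:0 CoA library was only just above its highest C16:0 CoA library, and the log2 fold change was 1.02 ± 0.33 (SE). It was 1.56 without C16:0 CoA replicate 1, 0.77 without C16:0 CoA replicate 2 and 0.64 without the 3 shallowest libraries. XTH18, a root-expressed member, had 102.9, 142.0 and 173.2 CPM with C18:0 CoA and 79.7, 126.1 and 74.5 CPM with C16:0 CoA, which overlap (0.61 ± 0.24, SE).

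Of the 33 XTH genes, a family chosen after the values of its leading members were seen, 26 had enough reads. Among these 22 were positive and 4 negative, against 49.3% positive over all genes, with a median log2 fold change of 0.21 against -0.01. At an unadjusted p under 0.05, 3 were higher and 0 lower, against 1.1% higher and 1.02% lower over all genes. These 3 are XTH6, TCH4 and XTH18, the members described above. Without overlap, 5 were higher (19.2% of those tested, against 4.17% of all genes), XTH6 and TCH4 among them. Because the counts include the genes that led to the choice, they are no support for a difference of the family. The touch list as a whole did not lean to C18:0 CoA. Of its 9 tested genes, 4 were positive, with TCH4 and XTH18 the only ones at an unadjusted p under 0.05, and the median was -0.06. The calmodulin-like genes TCH2 and TCH3 had log2 fold changes of -0.28 and -0.06.

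**Figure D3:**
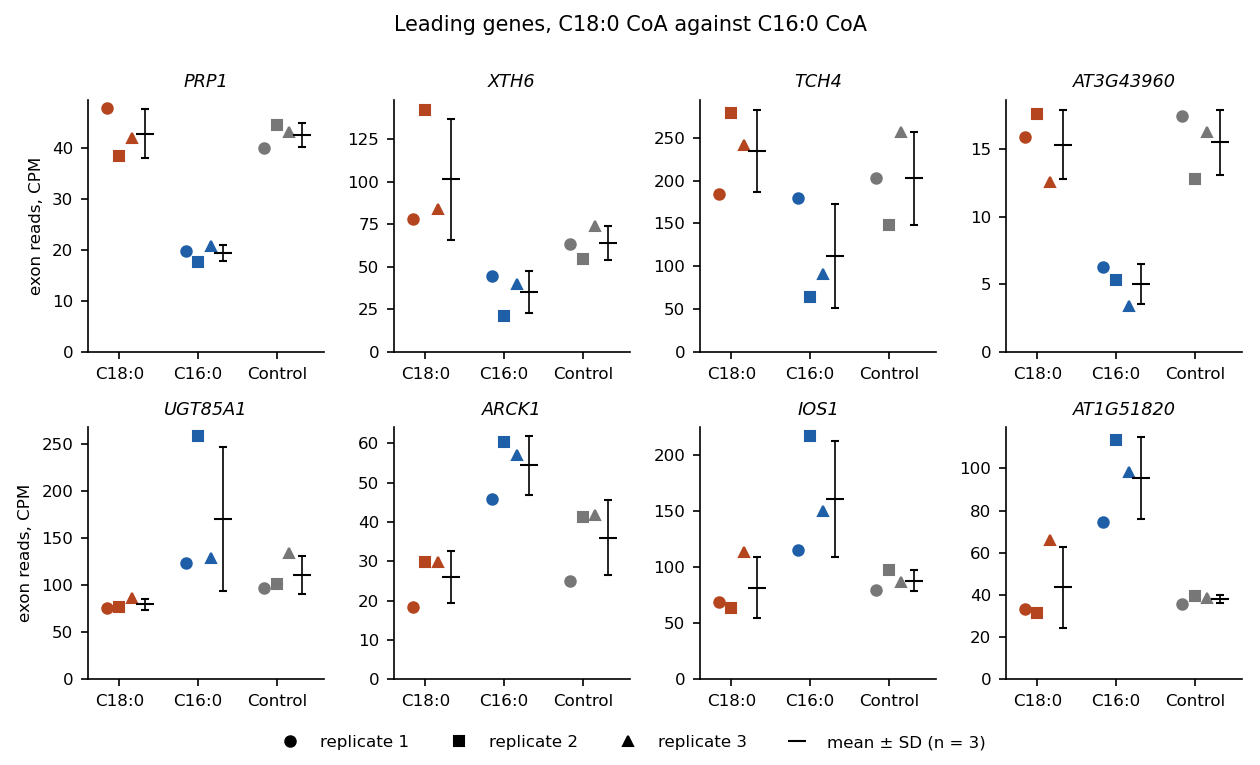
Exon reads in CPM for 4 genes higher (top) and 4 lower (bottom) with C18:0 CoA than with C16:0 CoA; each symbol is 1 library, bars give mean ± SD of 3 libraries, and control seedlings stand at the right. All genes shown but TCH4 were picked among those whose groups do not overlap (7.81% of all genes tested), so their separation follows from the choice. The groups lie apart by small margins in TCH4 (lowest C18:0 CoA library 184.0, highest C16:0 CoA library 180.0 CPM) and IOS1 (highest C18:0 CoA library 113.1, lowest C16:0 CoA library 114.8 CPM).

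The other genes with the smallest p among those higher without overlap were AT3G29000, AT3G43960, AT3G19390, AT1G17270, VAMP713 and AT2G38240. AT3G43960 and AT3G19390 encode proteins of the cysteine protease superfamily. AT3G43960 had 15.9, 17.5 and 12.5 CPM with C18:0 CoA and 6.30, 5.33 and 3.38 CPM with C16:0 CoA (log2 fold change 1.57 ± 0.41, SE). AT3G19390 had 43.0, 73.7 and 69.5 CPM with C18:0 CoA and 29.7, 35.5 and 34.4 CPM with C16:0 CoA (0.88 ± 0.25, SE). For AT3G43960 the C16:0 CoA group was the one away from control seedlings, which averaged 15.5 CPM; for AT3G19390 control seedlings averaged 45.1 CPM and lay between the groups. AT1G17270 encodes an O-fucosyltransferase family protein and VAMP713 a vesicle SNARE of the vacuole; their log2 fold changes were 1.65 ± 0.49 and 1.05 ± 0.33 (SE). AT3G29000, which encodes an EF-hand calcium-binding protein, rested on few reads: 21, 10 and 18 with C18:0 CoA against 1, 0 and 1 with C16:0 CoA. The pooled rate was 15.1 times higher with C18:0 CoA, with an exact 95% interval of 3.96 to 128 that covers counting error only.

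Jasmonate genes gave a split picture. AT2G38240 is an oxygenase gene of the group that hydroxylates jasmonic acid, and it is not a member of the jasmonate list. It had 21.8, 14.0 and 17.0 CPM with C18:0 CoA and 8.10, 3.55 and 5.08 CPM with C16:0 CoA (1.58 ± 0.50, SE). LOX2, the plastid lipoxygenase of jasmonate synthesis, had 19.99, 22.8 and 28.3 CPM with C18:0 CoA, against 12.2, 0 and 11.9 CPM with C16:0 CoA (1.28 ± 0.51, SE). Both genes were higher with C18:0 CoA without overlap, and for LOX2 the value of 0 fell in the library that stands apart; without it the log2 fold change was 0.98. AOC2, an allene oxide cyclase, had 36.8, 38.6 and 45.2 CPM with C18:0 CoA and 23.9, 31.96 and 24.3 CPM with C16:0 CoA (0.64 ± 0.28, SE). In the jasmonate list as a whole, 2 of 17 tested genes were higher (LOX2 and AOC2) and 0 lower at an unadjusted p under 0.05. Over all genes 1.1% were higher and 1.02% lower by this rule. Of the 17 genes, 12 were negative (70.6%, against 50.7% of all genes) and the median was -0.14. The signalling factor MYC2 and the repressor JAZ1 had -0.14 and -0.20.

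Lower with C18:0 CoA were, first, UGT85A1 (AT1G22400), a glycosyltransferase that glucosylates cytokinins, at 75.6, 77.2 and 86.0 CPM with C18:0 CoA and 123.8, 259.2 and 128.6 CPM with C16:0 CoA. Control seedlings averaged 110.9 CPM. The log2 fold change of -1.06 ± 0.26 (SE) came in part from the 259.2 CPM of C16:0 CoA replicate 2 and was -0.66 without that library. ARCK1, a cytoplasmic receptor-like kinase that dampens abscisic acid and osmotic stress responses, had 18.4, 29.8 and 29.9 CPM with C18:0 CoA and 45.9, 60.4 and 57.0 CPM with C16:0 CoA. All C16:0 CoA libraries were above all C18:0 CoA libraries and above the control mean of 36.1 CPM, and the log2 fold change (-1.10 ± 0.28, SE) was -1.05 without that library. AT5G48430, an aspartyl protease family gene, had 14.7, 21.0 and 42.4 CPM with C18:0 CoA, against 60.3, 44.4 and 68.8 CPM with C16:0 CoA and a control mean of 19.6 CPM (-1.16 ± 0.35, SE). Leaving out 1 library moved it between -0.78 (without C18:0 CoA replicate 1) and -1.82 (without C18:0 CoA replicate 3). MYB31, a MYB transcription factor gene, had 43.0, 24.6 and 36.3 CPM with C18:0 CoA, against 63.0, 131.4 and 69.4 CPM with C16:0 CoA (-1.20 ± 0.37, SE). Also among the 8 lower genes with the smallest p was AT2G24440, which had 12, 0 and 7 reads with C18:0 CoA and 23, 11 and 18 reads with C16:0 CoA, a pooled ratio of 0.225 (exact 95% interval 0.126 to 0.387, counting error only).

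A set of leucine-rich repeat receptor kinase genes on chromosome 1 supplied the other 3 of the 8: AT1G51790 (chr1:19206711-19211417), IOS1 (AT1G51800, chr1:19214148-19217970) and AT1G51820 (chr1:19237407-19241883). IOS1 encodes a malectin-like receptor kinase that takes part in pattern-triggered immunity and was named for impaired oomycete susceptibility of its mutant. The 250 bases upstream of the annotated start of these genes are shown because the genes are near neighbours and differed alike. They come from RefSeq, build TAIR10.1, read 5′ to 3′ on the gene's strand, at chr1:19211972-19212221 (minus strand), chr1:19213822-19214071 (plus strand) and chr1:19241966-19242215 (minus strand). RefSeq places these starts outside the TAIR10 gene bounds printed above, and match positions are counted from the RefSeq start. Capitals mark TTGAC or its reverse complement GTCAA, the core of the W-box that WRKY factors bind.
AT1G51790: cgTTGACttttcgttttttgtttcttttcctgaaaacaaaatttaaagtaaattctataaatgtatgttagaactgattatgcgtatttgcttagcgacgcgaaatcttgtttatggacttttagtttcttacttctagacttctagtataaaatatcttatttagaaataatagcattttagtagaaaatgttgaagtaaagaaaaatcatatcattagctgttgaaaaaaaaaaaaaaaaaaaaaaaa
IOS1: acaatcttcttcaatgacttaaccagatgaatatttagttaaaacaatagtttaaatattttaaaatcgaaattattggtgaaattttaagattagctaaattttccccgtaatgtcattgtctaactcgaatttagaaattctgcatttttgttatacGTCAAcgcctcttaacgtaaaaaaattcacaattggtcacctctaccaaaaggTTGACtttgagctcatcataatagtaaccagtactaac
AT1G51820: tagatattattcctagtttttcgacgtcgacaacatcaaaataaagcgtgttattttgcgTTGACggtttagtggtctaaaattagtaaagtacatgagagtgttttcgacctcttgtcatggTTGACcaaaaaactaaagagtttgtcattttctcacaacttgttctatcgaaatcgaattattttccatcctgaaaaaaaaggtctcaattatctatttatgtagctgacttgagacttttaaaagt
The core occurs 1 time upstream of AT1G51790, starting at -248, 2 times upstream of IOS1, at -91 and -38, and 2 times upstream of AT1G51820, at -190 and -127. It is a 5-base motif, searched on both strands, and 44.9% of the 27437 upstream windows of this length hold it, so the matches are a description of these windows.

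IOS1 had 68.7, 63.1 and 113.1 CPM with C18:0 CoA and 114.8, 216.6 and 150.0 CPM with C16:0 CoA. AT1G51820 had 33.3, 31.6 and 65.8 CPM with C18:0 CoA and 74.7, 113.6 and 98.1 CPM with C16:0 CoA. AT1G51790 had 29.9, 22.8 and 49.7 CPM with C18:0 CoA and 67.5, 95.9 and 67.7 CPM with C16:0 CoA. The groups did not overlap in these 3 genes, as the rule that named them required. In all 3 the highest C18:0 CoA library was replicate 3 and the highest C16:0 CoA library was replicate 2. Control seedlings averaged 87.8 CPM for IOS1, 37.9 CPM for AT1G51820 and 43.0 CPM for AT1G51790, within the C18:0 CoA range each time. Log2 fold changes were -0.92 ± 0.26, -1.06 ± 0.29 and -1.07 ± 0.30 (SE), and -0.66, -0.93 and -0.91 without C16:0 CoA replicate 2. The 15 loci from AT1G51790 to AT1G51910 were taken as a set after the values of these 3 genes were seen. Of them 10 were tested and 8 were negative (80%, against 50.7% of all genes). The 8 include the 3 genes that led to the choice. The other 5 negative genes lay between -0.40 and -0.05, and the 2 positive genes, AT1G51860 and AT1G51890, were at 0.88 and 0.84. Without C18:0 CoA replicate 3, AT1G51860 was at 0.23 and AT1G51890 at -0.62. Near-identical stretches in such tandem copies can move reads between neighbours.

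Among the gene lists, heat shock genes stood lowest. Of 18 tested, 16 were negative (88.9%, against 50.7% of all genes) and the median log2 fold change was -0.62, against -0.01 over all genes. At an unadjusted p under 0.05, 7 were lower (38.9%, against 1.02%) and 0 higher, and 4 were lower without overlap, against 3.65% of all genes. The median lay between -0.807 and -0.405 when any 1 library was left out and kept its sign in all 17 alternative settings. Between the pair that shared a lane it was -1.12. Heat shock genes encode chaperones and the factors that induce them, and respond to heat and to other stresses that unfold proteins.

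HSFA2 (AT2G26150), a heat-inducible transcription factor that sustains the heat shock response, had 43.9, 35.1 and 32.3 CPM with C18:0 CoA and 81.0, 35.5 and 132.6 CPM with C16:0 CoA. The second C16:0 CoA library lay within the C18:0 CoA range and the other C16:0 CoA libraries lay well above it. The log2 fold change was -1.21 ± 0.33 (SE); without C16:0 CoA replicate 2 it was -1.49 with an adjusted edgeR p of 0.0967, the smallest of any gene and any library left out, and without C16:0 CoA replicate 3 it was -0.72. ROF2 (AT5G48570), a peptidyl-prolyl isomerase that binds HSP90.1 and modulates HSFA2 activity, had 109.1, 108.7 and 106.6 CPM with C18:0 CoA and 180.0, 198.9 and 258.3 CPM with C16:0 CoA (-0.98 ± 0.33, SE). The chaperone HSP90.1 had 301.0, 394.6 and 359.0 CPM with C18:0 CoA, against 473.9, 461.7 and 758.6 CPM with C16:0 CoA (-0.69 ± 0.31, SE). ROF2, HSP90.1, the mitochondrial small heat shock protein HSP23.6-MITO (-1.48 ± 0.53, SE) and the factor HSFA3 (-0.96 ± 0.39, SE) were the 4 without overlap. The disaggregase HSP101 had 90.8, 68.4 and 93.3 CPM with C18:0 CoA and 113.0, 88.8 and 203.6 CPM with C16:0 CoA, which overlap (-0.68 ± 0.27, SE). The list's members nearest to 0 were HSP70B (0.01), HSFB2A (0.07) and HSFB2B (-0.18).

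The upstream windows of HSFA2 and ROF2 are shown because these genes act together in heat acclimation and led the list. They are RefSeq TAIR10.1 sequence at chr2:11135374-11135623 (plus strand) and chr5:19693846-19694095 (minus strand), with GAANNTTC, a heat shock element unit, in capitals.
HSFA2: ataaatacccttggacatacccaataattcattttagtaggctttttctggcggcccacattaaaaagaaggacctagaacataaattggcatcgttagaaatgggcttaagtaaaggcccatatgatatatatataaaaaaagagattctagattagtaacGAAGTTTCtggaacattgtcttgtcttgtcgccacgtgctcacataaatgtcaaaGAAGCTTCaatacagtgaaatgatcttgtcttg
ROF2: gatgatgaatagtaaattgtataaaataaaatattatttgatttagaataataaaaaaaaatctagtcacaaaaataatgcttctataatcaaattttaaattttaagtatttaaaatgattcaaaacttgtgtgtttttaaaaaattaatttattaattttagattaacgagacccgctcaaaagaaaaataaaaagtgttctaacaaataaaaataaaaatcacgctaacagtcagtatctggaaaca
The HSFA2 window holds the motif 2 times, starting at -88 and -33, and the ROF2 window holds these letters 0 times. The motif reads the same on both strands, and 9.55% of all windows of this length hold it.

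Control seedlings did not separate the compounds cleanly for these genes. ROF2 had 90.2, 80.5 and 192.3 CPM in control replicates 1 to 3, so that control replicate 3 lay in the C16:0 CoA range. HSP90.1 was spread the same way, at 251.3, 282.3 and 584.7 CPM in control seedlings. With C18:1 CoA (replicates 1 to 3), ROF2 had 94.45, 103.4 and 223.2 CPM and HSFA2 76.74, 64.8 and 69.8 CPM. C18:1 CoA replicate 3 carried the C16:0 CoA index, and control replicate 3 the C18:0 CoA index. The part of the index in these differences was not tested. Against the control group, which both comparisons share, the heat shock list had a median log2 fold change of -0.03 with C18:0 CoA and 0.62 with C16:0 CoA. HSFA2 alone was at -0.08 with C18:0 CoA and 1.13 with C16:0 CoA against control, and neither passed the test (edgeR adjusted p 0.9999 and 0.988).

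**Figure D4:**
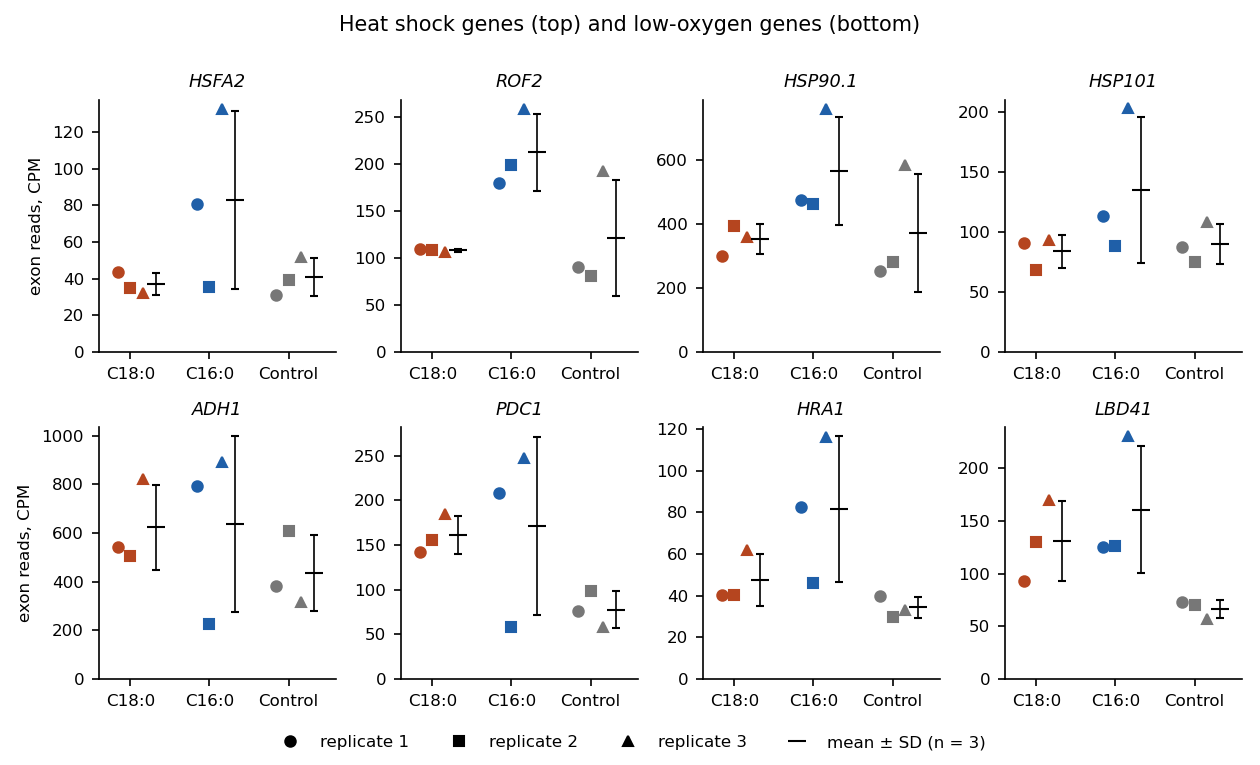
Exon reads in CPM for 4 heat shock genes (top) and 4 low-oxygen genes (bottom); each symbol is 1 library and bars give mean ± SD of 3 libraries. Heat shock genes are lower with C18:0 CoA than in most C16:0 CoA libraries, with control replicate 3 near the C16:0 CoA level for ROF2 and HSP90.1; ADH1 and PDC1 overlap, and C16:0 CoA replicate 2 lies lowest for both.

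Genes of the low-oxygen response showed a small lean to C16:0 CoA. Of 50 tested low-oxygen core genes 39 were negative (78%, against 50.7% of all genes), but 1 was lower and 1 higher at an unadjusted p under 0.05 (2% each, against 1.02% and 1.1% of all genes). Without overlap, 0 were lower and 2 higher, EXL1 and ACHT5, against 3.65% and 4.17% of all genes. The median was -0.15; it ranged from -0.35 without C16:0 CoA replicate 2 to 0.03 without C16:0 CoA replicate 3, and was 0.01 without C18:0 CoA replicate 1. Against the shared control group the median was 0.55 with C18:0 CoA and 0.67 with C16:0 CoA. The direction between the chain lengths therefore rested on single libraries.

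Fermentation genes overlapped in full. ADH1, the alcohol dehydrogenase of ethanol fermentation, had 542.4, 505.1 and 823.8 CPM with C18:0 CoA and 794.8, 225.5 and 891.2 CPM with C16:0 CoA. Its log2 fold change was -0.04 with a 95% interval of -0.87 to 0.80; it was -0.43 without C16:0 CoA replicate 2, 0.14 without C16:0 CoA replicate 1 and 0.27 without C16:0 CoA replicate 3. PDC1, the pyruvate decarboxylase that precedes it, had 142.7, 156.1 and 185.3 CPM with C18:0 CoA and 208.8, 58.6 and 247.6 CPM with C16:0 CoA (95% interval -1.02 to 0.76). SUS4, a sucrose synthase, had 149.8, 99.96 and 146.2 CPM with C18:0 CoA and 250.7, 19.5 and 238.6 CPM with C16:0 CoA (-1.48 to 0.69). In each of these 3 genes the highest and the lowest of the 6 libraries were both C16:0 CoA libraries, and the lowest was replicate 2.

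Feedback regulators came next. HRA1, whose trihelix protein limits the activity of RAP2.12, had 40.4, 40.3 and 62.2 CPM with C18:0 CoA and 82.4, 46.2 and 116.2 CPM with C16:0 CoA, with a control mean of 34.5 CPM. Its groups overlapped, and it had the smallest p of the low-oxygen list (-0.80 ± 0.31, SE; edgeR adjusted p = 0.9999). Without C16:0 CoA replicate 3 its log2 fold change was -0.47. LBD41, a LOB-domain factor gene and a standard marker of low oxygen, had 93.3, 129.8 and 169.2 CPM with C18:0 CoA and 125.6, 126.1 and 230.1 CPM with C16:0 CoA (95% interval -0.86 to 0.24). PCO1 and PCO2, the plant cysteine oxidases that mark group VII factors for degradation, had intervals of -0.67 to 0.54 and -0.85 to 0.57. The group VII factor genes HRE1 and HRE2 had -1.27 to 0.10 and -1.36 to 0.68, and RAP2.12, which is expressed without induction, had 209.8, 256.0 and 231.4 CPM with C18:0 CoA and 205.2, 220.2 and 211.0 CPM with C16:0 CoA (log2 fold change 0.13 ± 0.18, SE). The phytoglobin gene HB1 was at 0.25 (-0.37 to 0.88) and SAD6, a stearoyl-ACP desaturase gene induced by low oxygen, at -0.38 (-0.86 to 0.10). EXL1, also a member of the early immune list, was the one low-oxygen gene higher with C18:0 CoA at an unadjusted p under 0.05, with 18.15, 26.3 and 23.4 CPM against 8.10, 16.0 and 12.4 CPM with C16:0 CoA (0.95 ± 0.40, SE). The list of group VII factors and the enzymes of their degradation had 7 positive and 9 negative genes and a median of -0.06.

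For the genes that make, carry and use acyl-CoAs the intervals give the bounds. In 7 lists of acyl-CoA and fatty acid metabolism, 78 genes were tested and 67 had an interval within 1 log2 unit of 0, which leaves 11 that did not. None had an unadjusted p under 0.05, a count from which nothing is read, since 2.11% of all genes would give few in a set of this size. Medians were -0.09 for acyl-CoA synthetases, 0.04 for acyl-CoA-binding proteins, 0.11 for peroxisomal beta-oxidation, -0.04 for elongation, -0.02 for desaturases, -0.04 for acyltransferases and -0.04 for plastid fatty acid synthesis. All 11 elongation genes and all 12 plastid genes had intervals within 1 log2 unit of 0, as did 13 of 15 beta-oxidation genes, 11 of 13 desaturases and 9 of 13 acyltransferases.

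Of the 6 acyl-CoA-binding proteins, ACBP6, the small cytosolic form, had 647.7, 845.3 and 690.9 CPM with C18:0 CoA and 667.0, 951.7 and 653.7 CPM with C16:0 CoA (95% interval -0.49 to 0.37). ACBP1 and ACBP2, the membrane-anchored forms that bind RAP2.12, had log2 fold changes of 0.07 (-0.86 to 0.99) and 0.02 (-0.80 to 0.83). ACBP3, a secreted or endomembrane form, was at 0.22 (-0.32 to 0.77) and the kelch-domain form ACBP4 at 0.06 (-0.36 to 0.48). The other kelch form, ACBP5, had at most 4.95 CPM in any of the 6 libraries and an interval of -2.02 to 1.35, too wide to set a useful bound.

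Among the synthetases, LACS4 of the endoplasmic reticulum had 261.2, 313.9 and 315.4 CPM with C18:0 CoA and 285.3, 291.2 and 286.5 CPM with C16:0 CoA, which bounds its difference between -0.35 and 0.43. LACS7, one of the peroxisomal pair, had 50.6, 38.6 and 47.7 CPM with C18:0 CoA and 61.7, 72.8 and 50.8 CPM with C16:0 CoA, apart by a small margin (-0.38 ± 0.25, SE). Its peroxisomal partner LACS6 had the opposite sign (0.25 ± 0.25, SE). LACS1 was also lower without overlap (-0.23 ± 0.23, SE), and LACS2, LACS3, LACS8 and the plastid envelope enzyme LACS9 lay between -0.30 and 0.15. LACS5 (AT4G11030) had too few reads to test. Acyl-CoA oxidases open each round of beta-oxidation, with preferences for chain length that differ between family members. ACX1 and ACX2, which act on medium to long and on long chains, had 0.22 (-0.19 to 0.63) and 0.17 (-0.28 to 0.63). ACX3, for medium chains, had 0.07 and ACX4, for short chains, -0.01 (-0.56 to 0.54). ACX5 had 0.10 with a wide interval (-1.04 to 1.24). MFP2, the multifunctional protein of the next steps, had the smallest p of the list (0.36 ± 0.23, SE).

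Of the 21 ketoacyl-CoA synthases, the chain-length-setting enzymes of elongation, 15 were tested, with 8 positive and 7 negative. At an unadjusted p under 0.05 there were 0. Nothing is read from that count either, since 2.11% of all genes had such a p. KCS6, the wax enzyme of the epidermis, had 433.3, 619.0 and 495.9 CPM with C18:0 CoA and 377.2, 630.3 and 336.2 CPM with C16:0 CoA. SSI2, the main stearoyl-ACP desaturase, had 220.1, 159.6 and 233.8 CPM with C18:0 CoA and 237.2, 246.8 and 214.9 CPM with C16:0 CoA (-0.17 ± 0.19, SE). The groups overlapped in both genes.

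Immune genes were split. WRKY11 (AT4G31550), a calmodulin-binding transcription factor of basal defence, had 53.3, 33.3 and 84.8 CPM with C18:0 CoA and 87.8, 197.1 and 93.1 CPM with C16:0 CoA (-1.02 ± 0.32, SE). Its closest relatives WRKY17 and WRKY7 were also lower without overlap (-0.62 ± 0.28 and -0.45 ± 0.20, SE). WRKY22, a factor downstream of flagellin perception, had 64.6, 66.6 and 84.4 CPM with C18:0 CoA and 74.7, 266.3 and 91.4 CPM with C16:0 CoA. These differences depended unequally on C16:0 CoA replicate 2: without it the log2 fold changes were -0.57 for WRKY11, -0.27 for WRKY17, -0.50 for WRKY7 and -0.20 for WRKY22. Over 46 tested WRKY genes, a family chosen after its leading members were seen, 28 were negative (60.9%, against 50.7% of all genes). Their median was -0.09. Without overlap, 4 of the 46 were lower and 1 higher, against 3.65% and 4.17% of all genes. The 4 include WRKY11, WRKY17 and WRKY7, described above, so nothing about the family is read from this count. The early immune list of 23 tested genes was split, with 12 negative and a median of -0.07. It had 4 lower genes at an unadjusted p under 0.05, namely WRKY11, WRKY22, WRKY17 and the ubiquitin ligase gene PUB23 (-0.82 ± 0.33, SE), and 1 higher gene, EXL1. Over all genes 1.02% were lower and 1.1% higher by this rule. FRK1, a flagellin-response kinase gene named after its values were seen, showed how uneven single pools were, at 1.61, 1.75 and 54.9 CPM with C18:0 CoA and 8.55, 14.2 and 15.2 CPM with C16:0 CoA. AT4G12490, named after its values were seen, had the most extreme fitted difference of all genes tested and rested on 1 pool: 7.35, 5.26 and 713.5 CPM with C18:0 CoA, against 5.85, 0 and 6.21 CPM with C16:0 CoA, while 1 control pool had 383.1 CPM.

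The remaining lists had medians between -0.23 and 0.20. Carbon starvation genes had 13 of 16 positive and a median of 0.16, and root and root hair genes 12 of 16 and 0.20, of which PRP1 alone had an unadjusted p under 0.05. Photosynthesis genes had 25 of 29 negative and a median of -0.20, which turned to 0.26 without C16:0 CoA replicate 2. Over all genes 49.3% were positive and 50.7% negative. Medians were 0.17 for salicylic acid (10 genes), 0.14 for oxidative stress and mitochondrial dysfunction (15), 0.10 for detoxification (18), 0.06 for cytokinin (9) and 0.03 for abscisic acid, drought and cold (14). They were -0.02 for auxin (15), -0.03 for ethylene (19), -0.06 for the circadian clock (15), -0.07 for the unfolded protein response (17) and -0.23 for cuticular wax and cutin (13). In these 10 lists 1 gene was higher at an unadjusted p under 0.05, UGT74E2 (2.01 ± 0.73, SE), an auxin glycosyltransferase induced by hydrogen peroxide, with 4.83, 19.3 and 52.5 CPM with C18:0 CoA and 4.50, 12.4 and 5.64 CPM with C16:0 CoA. Without C18:0 CoA replicate 3 its log2 fold change was 0.53, and between the pair that shared a lane it was -0.20. The clock gene ELF3 alone was lower (-0.61 ± 0.26, SE). Over all genes 1.1% were higher and 1.02% lower by this rule, so nothing about the lists is read from these counts.

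**Figure D5:**
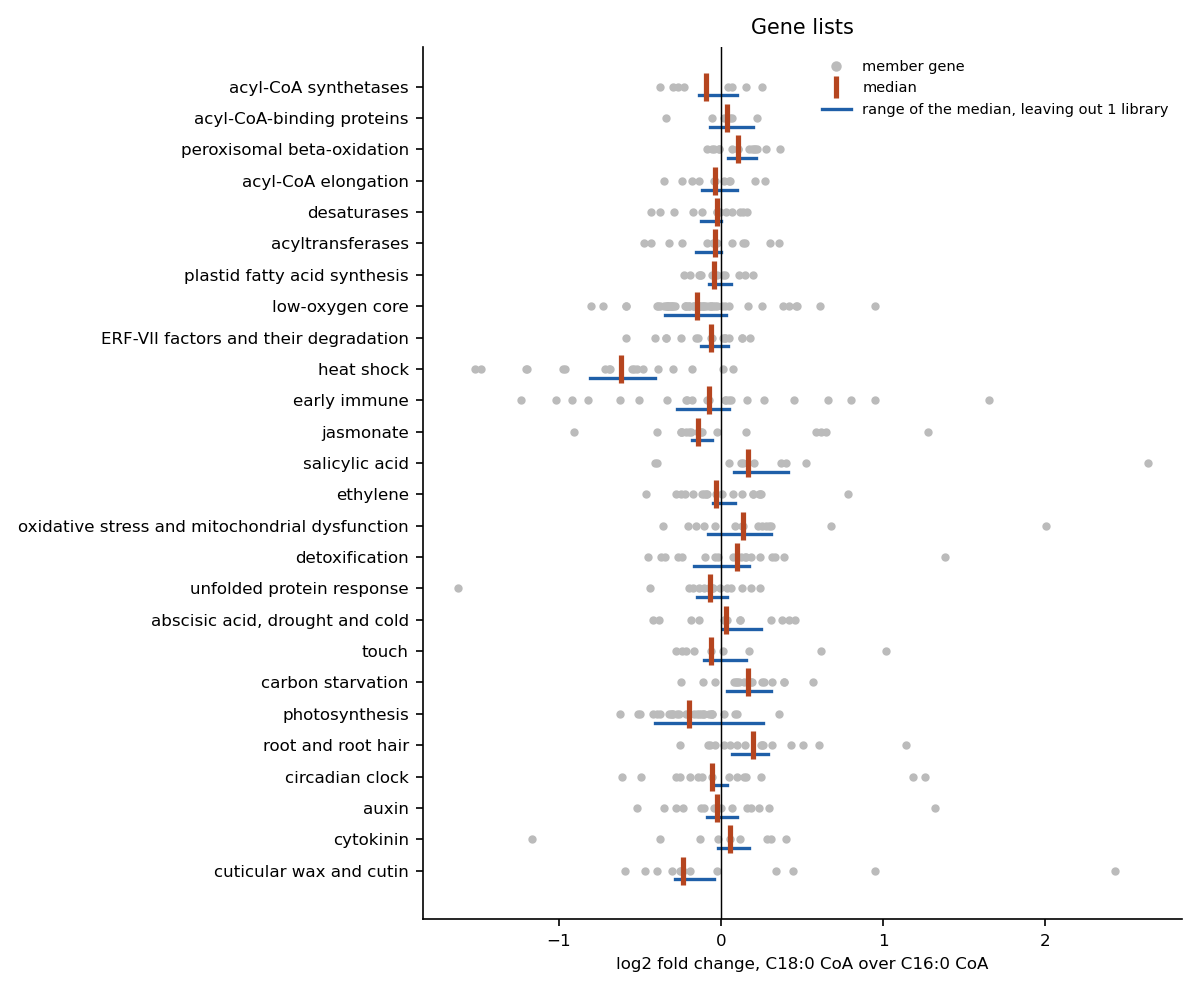
Log2 fold changes, C18:0 CoA over C16:0 CoA, of the tested genes of each list (grey points), with the list median (red bar) and the range of that median when any 1 of the 6 libraries was left out (blue line). Heat shock has the lowest median (-0.62) and its range stays below 0; the ranges of low-oxygen core and photosynthesis cross 0.

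Summed markers of cell types overlapped between the groups for all types but seed. Summed leaf mesophyll markers were at 7837 to 11070 CPM with C18:0 CoA and 8103 to 16390 CPM with C16:0 CoA, the highest value being C16:0 CoA replicate 2. Root and root hair markers were at 317.4 to 373.1 CPM with C18:0 CoA and 255.7 to 401 CPM with C16:0 CoA, and guard cell markers at 101 to 115.7 CPM with C18:0 CoA and 99.4 to 106.2 CPM with C16:0 CoA. Phloem markers were at 165.9 to 187.6 CPM with C18:0 CoA and 153.9 to 222 CPM with C16:0 CoA, and xylem markers at 57.9 to 72.6 CPM with C18:0 CoA and 63.7 to 76.4 CPM with C16:0 CoA. Flower and pollen markers, which seedlings should lack, were at 3.51 to 8.04 CPM with C18:0 CoA and 3.38 to 7.10 CPM with C16:0 CoA, with 2 of 7 at 0 in all 6 libraries. The 6 seed markers summed to 7.35, 22.8 and 50.5 CPM with C18:0 CoA and to 5.85, 0 and 0 CPM with C16:0 CoA; the seed storage genes CRA1 and CRU3 gave 66 and 55 reads in C18:0 CoA replicate 3. The part of these seed transcripts in other differences was not tested. In whole seedlings, fewer cells of a type and less RNA per cell cannot be told apart.

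The authors' deposited table holds their own comparison of these groups, Baggerley's test on proportions of reads, and it differs from the count test. There, 348 genes of the authors' deposited table had a corrected p under 0.05, of which 183 were higher and 165 lower with C18:0 CoA; its differences run as C16:0 minus C18:0. Of the 348, 79 did not overlap between the groups (22.7%, against 7.81% of all genes tested), 80 had an unadjusted edgeR p under 0.05 (23%, against 2.11%), and 40 had too few reads for the count test. The 22.7% and 23% are shares of all 348, including these 40, which could meet neither rule. Of the 165 lower with C18:0 CoA in the authors' deposited table, 161 had their highest C16:0 CoA value in replicate 2 (97.6%), as had 129 of the 183 higher genes (70.5%) and 40% of all genes tested. UGT85A1 and IOS1 were among the genes with the smallest corrected p in the authors' deposited table, and so were the light-harvesting genes CAB3, LHCB1.1 and LHCB1.3. CAB3 had 622.9, 1180 and 602.9 CPM with C18:0 CoA and 675.1, 1632 and 743.4 CPM with C16:0 CoA, LHCB1.1 204.9, 420.9 and 237.8 CPM with C18:0 CoA and 298.0, 662.3 and 268.5 CPM with C16:0 CoA, and LHCB1.3 a log2 fold change of -0.11 ± 0.29 (SE). LHCB1.1 had a log2 fold change of -0.51 ± 0.37 (SE), and -0.01 without C16:0 CoA replicate 2. In CAB3 and LHCB1.1 the highest library of each group was its shallow second replicate and the groups overlapped. On the higher side the authors' deposited table led with AT5G20700, GASA1, BGAL4, GSTF10 and XTH18. Among these BGAL4, a beta-galactosidase gene, did not overlap, at 178.7, 256.0 and 253.6 CPM with C18:0 CoA and 145.8, 165.1 and 130.3 CPM with C16:0 CoA (0.64 ± 0.24, SE). The gibberellin-regulated GASA1 (0.26 ± 0.31, SE), the glutathione transferase GSTF10 (0.13 ± 0.27, SE) and AT5G20700 (0.43 ± 0.23, SE) overlapped.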

How the data were processed

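Polyadenylated RNA of whole seedlings was sequenced as 50-cycle paired-end reads from a stranded kit, per the labels' protocols. The submitters' processing notes name the TAIR10 build; the aligner, the annotation and the use of strand in counting are not given in the sources used here, so overlapping antisense genes cannot be told apart. The authors deposited 1 table with exon, intron and whole-gene read counts per library, in which total and unique exon counts are equal in every cell. It also holds the authors' own p-values and FDR-corrected p-values from Baggerley's test on 16:0 against 18:0, with a score per gene, the weighted difference of proportions, per the file headers. Copies of near-identical genes (LHCB1 and RBCS genes, tandem receptor kinases) may have lost or exchanged reads. The 1 line with no gene name held 0 exon reads.

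Exon counts of all 12 libraries were fitted in 1 model in edgeR 4.0.16 (R 4.3.3; TMM scaling, filterByExpr, 17036 genes kept, quasi-likelihood F test, two-sided, Benjamini-Hochberg adjustment, threshold 0.05). The contrast was C18:0 CoA minus C16:0 CoA, 1 pair of compounds. Standard errors came from the fold change and F, and intervals are 95%. CPM were scaled by TMM. DESeq2 1.42.0, limma 3.58.1 and the further alternatives are in the closing section. The script was tested on simulated data. Same-numbered replicates were not paired: the correlations of their deviations were 0.234, 0.193 and 0.0479.

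The comparison, the 26 lists and the rule for named genes were chosen with earlier results of these data known. The rule took the 8 genes of each direction with the smallest p among those without overlap, set low-oxygen and acyl-CoA genes, up to 3 genes a list with the smallest p, and the 5 leading genes a direction of the authors' table. Named after their values were seen were AT4G12490, FRK1, the further WRKY, XTH, PRP, KCS and receptor kinase genes, TCH2, TCH3, MYC2, JAZ1, HSP90.1, HSP101, HSFA3, HSFB2A, HSFB2B, HSP70B, ACHT5, CRA1 and CRU3. Lists get counts and medians, with no test. Of the 28642 genes, 28009 matched RefSeq, the source of symbols and upstream windows.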

Additional observations from a re-analysis of the deposited data

How the results depend on the processing

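The count of 0 called genes held in all 17 alternative fits: RLE scaling, no filter on low counts, a mean count of 10 or more, DESeq2, limma voom with and without sample quality weights, the 6 libraries alone, without the 3 shallowest libraries, each of the 6 libraries left out, the length trend removed, whole-gene reads and the replicate block. Genes at an unadjusted p under 0.05, 360 as reported, numbered 643 without C16:0 CoA replicate 2, 595 without C16:0 CoA replicate 1, 765 without the 3 shallowest libraries, 1095 with sample quality weights and 191 in the 6 libraries alone. With a replicate block 0 genes were called, 256 had an unadjusted p under 0.05 and the low-oxygen median was -0.163; the numbers were not shown to pair the pools. Leaving out 1 library, the share of genes with an interval within 1 log2 unit of 0 ranged from 38.2% to 57.5% and the low-oxygen median from -0.348 to 0.0284. Between the 2 libraries of the shared lane, a value with no test, that median was -0.677. The cause was not tested. Depth limits genes of low level: 3 reads are worth over 5 CPM in both second replicates, so their zeros set no useful bound there.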
